A study of Mus musculus with 24 samples.

Results

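The dermal papilla (DP), the cluster of mesenchymal cells at the base of each hair follicle, was compared between the first telogen at P20 and the second telogen at P60 in control mice. The members were the 3 control libraries of each age, chosen by their labels alone, which made 6 of the 24 libraries of the series. The other libraries came from controls in anagen at P24 and P28 and from dM1/2 mice, the Hdac1/Hdac2 double mutants, at all 4 ages. All 24 held RNA of sorted YFP+ cells of skin, in which Corin-Cre, a driver active in the DP, had switched on a ROSA26 EYFP reporter. All mice, controls included, carried Cor-cre/+ with floxed alleles. The study lists as controls Hdac1Flox/+; Hdac2Flox/+ mice and mice with a floxed allele at only 1 of the 2 genes. It also lists controls homozygous for the floxed allele of 1 gene and heterozygous for that of the other. The genotype of each single control library is not in its label. The dM1/2 mice were Hdac1Flox/Flox; Hdac2Flox/Flox. The study's methods state that the P20 skin came from females and that both sexes were used at P60. Xist, the RNA that coats the inactive X chromosome, lay between 8113 and 21200 normalized reads in the 6 libraries and the Y-linked Ddx3y was at 0 in all of them.

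Telogen is the resting phase of the hair cycle, in which the DP sits as a compact ball beneath the secondary germ and the stem cells of the bulge. Signals of the DP, among them FGFs, BMPs and Wnt modulators, set when these epithelial cells start the next anagen. The study's methods describe the first telogen as brief in males but longer and variable in females, the sex stated for P20. Entry into the next anagen is described there as synchronized in males. The second telogen is long and is known for its refractory state. Between the 2 ages the skin also passes from the rapid growth of the juvenile into the adult state, so that hair cycle number, age and growth of the animal cannot be told apart in this comparison.

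Values are normalized reads, that is, the reads of a gene divided by the size factor of its library. Depth on genes was 11766916 to 13369732 reads in the P20 controls and 8843748 to 9512720 in the P60 controls, so that a single read was worth 2.68 to 2.87 normalized reads at P20 and 2.10 to 2.38 at P60. A count of 0 allows up to 3 reads, or on average 8.25 normalized reads at P20 and 6.79 at P60, and this limit covers counting error only. Each of the 3 libraries of an age is labelled as a biological replicate. The labels give no batch or date, and any run that differed between the ages cannot be told apart from age. Each gene was tested with limma, and a gene is called here when its p adjusted over all genes was under 0.05. Changes are given as log2 of P60 over P20, with the SE of the fit (n = 3 libraries per age).

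The DP label was checked against 15 DP markers, all of which were detected. Their summed level was 42347 to 49903 normalized reads at P20 and 31924 to 48864 at P60, whereas it was 186250 to 513107 in the anagen controls. Corin, the transmembrane serine protease whose promoter drives the Cre, was at 761, 338 and 482 at P20 and 249.8, 431 and 609 at P60, against 12267 to 75255 in anagen. The 12 markers of other dermal fibroblasts summed to 81079 to 137584 at P20 and 112401 to 143357 at P60, above the DP markers in each of the 6 libraries. Both lists hold different genes, each with its own level per cell, so these sums do not give shares of cells. In bulk RNA, fewer cells of a type and less RNA per cell cannot be told apart. Of those 12 fibroblast markers 2 rose, 1 fell and 9 were not called, and the rises were those of Pi16 (6950.3, 8773 and 6141 normalized reads at P20 and 23939, 17706 and 18412 at P60) and Plac8 (201, 533 and 304 normalized reads at P20 and 1847, 877 and 722 at P60). Thy1 had 7877, 14436 and 12009 normalized reads at P20 and 5991, 6409 and 5356 at P60 and fell by 0.91. The fits without P20 controls 1 to 3 and then P60 controls 1 to 3 gave 2, 3, 1, 2, 1 and 2 fibroblast rises and 1, 0, 0, 1, 0 and 0 falls. The part of other fibroblasts in the results below was not tested.

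Of 13900 genes tested, 850 (6.12%) were called higher and 896 (6.45%) lower at P60, which is 12.6% in all. The groups did not overlap for 1740 of the 1746 called genes, against 34.8% of all genes tested. Where a called gene is said below not to overlap, this describes its values and adds no support to the call. The median log2 change over all genes was 0.03. Counts of each list below, the marker lists included, are to be read against the 6.12% and 6.45% of all genes. The lists were chosen with earlier results of these data known, so their counts may not be independent of these data. The falls held 22 of 38 genes of fibrillar collagens and their processing, 14 of 47 of DNA replication and mitosis and 7 of 26 imprinted genes, and the rises held 24 of 42 genes of the interferon response and antigen presentation and 12 of 31 complement and chemokine genes. The number of calls depended on single libraries. It was 2796 without P20 control 1, 983 without P20 control 2 and 527 without P20 control 3, and 1039, 760 and 1027 without P60 control 1, 2 and 3.

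**Figure D1:**
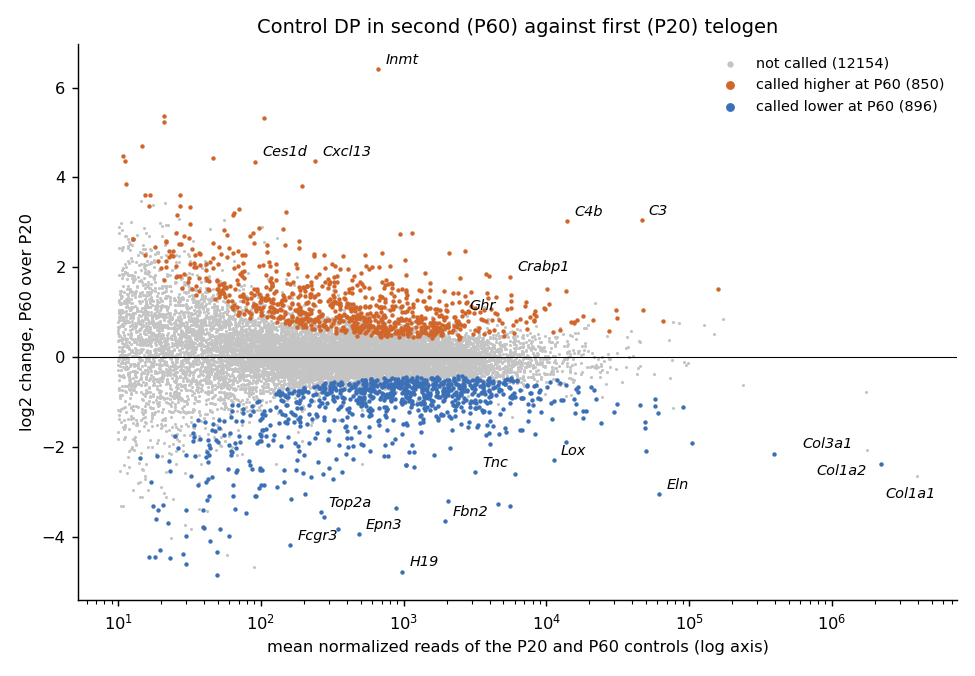
Log2 change of P60 over P20 (vertical axis) against the mean of both ages in normalized reads (horizontal log axis) for each of the 13900 genes tested. Orange points are the 850 genes called higher at P60, blue points the 896 called lower and grey points the others. The type I and III collagen genes lie at the far right, between -2.65 and -2.08.

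The largest changes were ranked among called genes whose ages did not overlap and whose mean was at least 100 normalized reads in the higher age, leaving out predicted genes, pseudogenes, ribosomal protein genes and markers of other cells. Among the falls, the imprinted long noncoding RNA H19 (chr7:142575529-142578143, GRCm38) had 833, 3138 and 1727 normalized reads at P20 and 71.4, 52.4 and 55.3 at P60. It fell by 4.78 ± 0.39 on the log2 scale (adjusted p = 0.000217) and its mean was 31.8-fold lower at P60. The low-affinity IgG receptor gene Fcgr3 had 276, 276 and 359 normalized reads at P20 and 16.8, 19.1 and 11.5 at P60 and fell by 4.20. Each of the 3 P20 libraries lay far above each of the 3 P60 libraries for both genes, lack of overlap being a condition of this ranking. Epn3, an epsin of endocytosis, fell by 3.95 ± 0.27 on the log2 scale and Adamts17, a secreted metalloprotease, fell by 3.83 ± 0.23 on the log2 scale. Phex, a membrane endopeptidase best known from phosphate balance in bone, fell by 3.56 ± 0.30 on the log2 scale, and Plbd1, a phospholipase B-like gene, fell by 3.48. Slc26a10, of the Slc26 anion transporter family, fell by 3.38. The kinetochore gene Kntc1 fell by 3.99, with 10.7, 189 and 146 at P20 and 6.30, 2.38 and 2.31 at P60, so that P20 control 1 lay close to the P60 libraries. The 10 largest falls of this ranking also held Fbn2 and Top2a, which are described with their groups. Cdk1, whose fall was larger than that of H19, had a mean of 96.5 at P20 and stayed under the limit.

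The largest rise was that of Inmt (chr6:55170626-55175043), an N-methyltransferase of indolethylamines, which had 40.2, 2.71 and 20.1 normalized reads at P20 and 1843, 1101 and 971 at P60 and rose by 6.41 ± 0.71 on the log2 scale (adjusted p = 0.000968), a 62.2-fold difference of the means. Ces1d, a carboxylesterase, had 5.36, 10.8 and 5.74 normalized reads at P20 and 277, 143 and 106 at P60 and rose by 4.35. Both genes had few reads in each P20 library and far more in each P60 library. Mrgprg, a Mas-related G protein-coupled receptor, rose by 3.80 ± 0.58 on the log2 scale, and Slamf8, a receptor of the SLAM family, rose by 3.29. Lrrtm1, a leucine-rich repeat membrane protein of synapses, rose by 3.22 ± 0.26 on the log2 scale, with 21.4, 32.5 and 31.5 at P20 and 298, 288 and 228 at P60. The Iroquois homeobox gene Irx6 rose by 3.21 and the actin-binding Fam107a rose by 3.16. Trim30d rose by 5.33, but it had 85.7, 0 and 0 at P20 and 227, 184 and 134 at P60, so that P20 control 1 held all its P20 reads, and the call was lost in 5 of the 6 fits that left out a library. Trim30d and Ces1d have near-identical relatives, and how reads that match several genes were counted is not given in the sources used here, so their levels are uncertain. The other 2 of the 10 largest rises of this ranking, Cxcl13 and C3, belong to the complement and chemokine list.

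**Figure D2:**
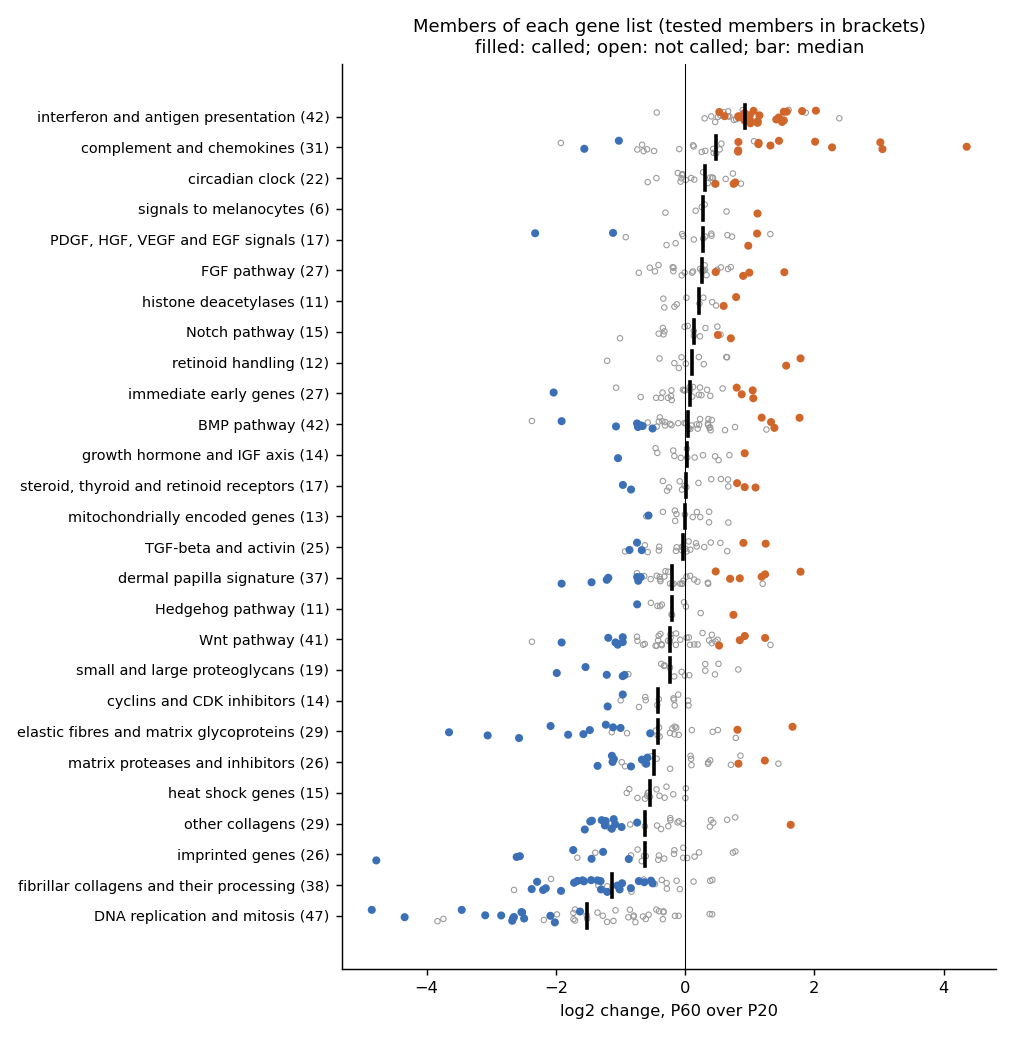
Log2 change of P60 over P20 (horizontal axis) of each tested member of 27 gene lists, sorted by the list's median (black bar). Filled points are called members and open points members not called. DNA replication and mitosis and the fibrillar collagens lie lowest, with medians of -1.52 and -1.13, and interferon and antigen presentation highest, with 0.92.

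Fibrillar collagens give the dermis its tensile strength. Their chains fold and are hydroxylated in the endoplasmic reticulum, are trimmed outside the cell and are then cross-linked by lysyl oxidases. Of 38 genes of these steps, 22 fell, 0 rose and 16 were not called, with a median change of -1.13 against 0.03 over all genes. The count of falls was 14 without P20 control 3 and 16 to 24 without any other library. Col1a2, a chain of type I collagen, had 3305480, 4189349.6 and 3619717 normalized reads at P20 and 667573, 786945 and 682726 at P60 and fell by 2.38 ± 0.65 on the log2 scale (adjusted p = 0.0421). Its partner Col1a1 (chr11:94936224-94953042) had 6100056, 7735874 and 6769696 normalized reads at P20 and 1075063, 1187812 and 1013811 at P60 and Col3a1 had 2440784, 3302519.7 and 2809533 normalized reads at P20 and 688164, 759322 and 577880.0 at P60. These 2 genes were added after their values had been seen, because with Col1a2 they hold the most reads of the list. Their log2 changes were -2.65 ± 0.81 and -2.08 ± 0.61, and the P20 libraries lay at least 3-fold above each P60 library, but limma with a trend gave adjusted p = 0.0597 and 0.0540. Both were called by edgeR (adjusted p = 0.000681 and 0.00137), by DESeq2 and by limma without a trend (adjusted p = 0.00390 and 0.00730). Limma without a trend gave the same log2 changes with an SE of 0.15 for Col1a1 and 0.18 for Col3a1. Over all alternatives the adjusted p of Col1a1 ranged from 9.86e-63 with DESeq2 to 0.534 without a filter on low values.

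The chains of types I and III took 37.6% to 42.1% of all reads on genes in the P20 controls and 11.2% to 12.6% in the P60 controls, so that 39.6% ± 2.31 of the library (SD, n = 3) stood against 11.98% ± 0.747. An exact two-sided permutation test of this share gave p = 0.1, the smallest value that 3 libraries against 3 allow. Of the enzymes, Lox, a lysyl oxidase, had 15832, 23645 and 16741 normalized reads at P20 and 4141, 4278 and 3011 at P60 and fell by 2.29 ± 0.20 on the log2 scale. Col11a1, a minor fibrillar chain, had 1023, 1171 and 1643 normalized reads at P20 and 313, 307 and 209.8 at P60 and fell by 2.20. The ages did not overlap for either gene. In the processing group 18 of 27 genes fell, by between 0.50 and 2.29. They held prolyl hydroxylases (P4ha1, P4ha2), the collagen chaperone Serpinh1 and the propeptide protease Adamts2. Bmp1, which trims procollagen and is also counted in the BMP list, fell least.

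**Figure D3:**
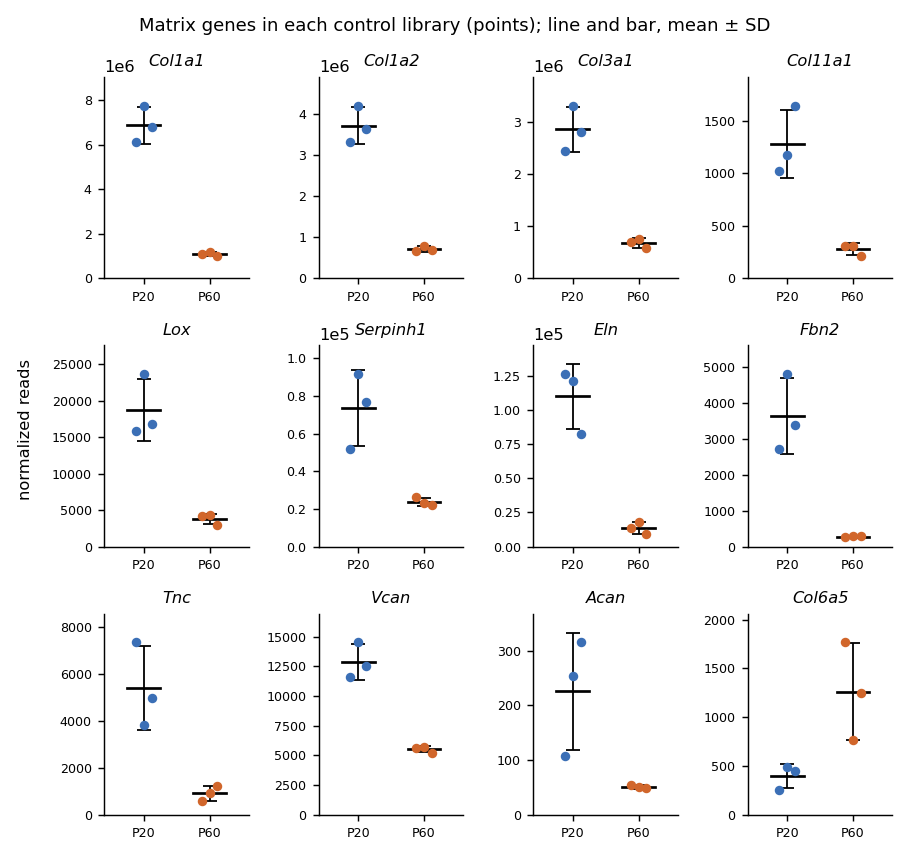
Normalized reads (vertical axes from 0, 1 scale per gene) of 12 matrix genes in the 3 P20 (blue) and 3 P60 (orange) control libraries, with lines and bars for mean ± SD. Col6a5 lies higher at P60 and the other 11 lie higher at P20, without overlap of the ages in any panel.

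Elastic fibres and glycoproteins showed the same direction for most called members, 11 of 29 tested falling and 2 rising. Fbn2, the fibrillin of developing microfibrils, had 2719, 4802 and 3396 normalized reads at P20 and 267, 284 and 291 at P60 and fell by 3.65 ± 0.19 on the log2 scale (adjusted p = 4.69e-05) and its mean was 12.99-fold lower at P60. In the anagen controls Fbn2 was at 5991 to 10812, above both telogen ages. Eln, the elastin gene, had 126024, 120802 and 82479 normalized reads at P20 and 13564, 17715 and 9059 at P60 and fell by 3.06 ± 0.27 on the log2 scale. Tnc, the gene of tenascin-C, a glycoprotein of growing and healing tissue, had 7336, 3823 and 4985 normalized reads at P20 and 589.8, 925 and 1217 at P60 and fell by 2.57. For each of these 3 genes the lowest P20 library was at least 3 times the highest P60 library. The 2 rises were Spp1, the osteopontin gene (252, 94.7 and 146 normalized reads at P20 and 483, 465 and 500.3 at P60, log2 change 1.66 ± 0.30), and Efemp1, a fibulin (4256, 7483 and 6396 at P20 and 11540.5, 11087 and 8579 at P60, log2 change 0.81). With P20 controls 1 to 3 and then P60 controls 1 to 3 left out, the fits gave 14, 8, 7, 11, 7 and 7 falls.

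Of 29 tested chains of basement membrane, beaded-filament and fibril-associated collagens, 11 fell and 1 rose. The fits without P20 controls 1 to 3 and P60 controls 1 to 3, in that order, gave 13, 11, 5, 11, 8 and 9 falls. The transmembrane collagen Col13a1 fell by 1.55 ± 0.23 on the log2 scale, with 849, 530.3 and 659.7 at P20 and 243, 276 and 173 at P60, and Col26a1 fell by 1.47. Col9a2 fell by 1.44 from a low level, with 61.6, 40.6 and 80.3 at P20 and 23.1, 19.1 and 20.8 at P60. Col6a5, a chain of type VI collagen, was the exception, with 257, 489.7 and 450.3 normalized reads at P20 and 1767, 769.8 and 1252 at P60, and rose by 1.63 ± 0.31 on the log2 scale (adjusted p = 0.0115), whereas the main type VI chains of the list, Col6a1, Col6a2 and Col6a3, were among the falls. Of 19 proteoglycan genes tested 5 fell and none of the list rose. The cartilage proteoglycan Acan had 107, 254 and 315 normalized reads at P20 and 54.6, 50.05 and 48.4 at P60 and fell by 1.99, and Hapln3, a link protein that binds hyaluronan, fell by 1.54. Versican, Vcan, had 11573, 14509 and 12534 normalized reads at P20 and 5659, 5710.4 and 5222 at P60 and fell by 1.21 ± 0.14 on the log2 scale, and the 3 libraries of an age lay close together. In the same order of libraries left out, proteoglycan falls numbered 5, 4, 2, 4, 3 and 5.

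Of matrix proteases and their inhibitors, 8 of 26 tested fell and 2 rose, against 6.45% and 6.12% of all genes. The membrane-type metalloprotease Mmp15 fell by 1.36 ± 0.28 on the log2 scale, Adamts12 fell by 1.13 and the inhibitor Timp1 fell by 1.12, with 246, 489.7 and 422 at P20 and 183, 241 and 111 at P60. Timp3, the matrix-bound inhibitor, had 5158, 6744 and 5779 normalized reads at P20 and 12508, 9595 and 9312 at P60 and rose by 0.82 ± 0.16 on the log2 scale. Plau, the urokinase gene, rose by 1.23, although P20 control 2 (2703) lay above P60 control 2 (2691). Leaving out P20 controls 1 to 3 and then P60 controls 1 to 3 gave 8, 3, 2, 6, 3 and 3 falls and 2, 3, 0, 2, 1 and 1 rises.

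Genes of DNA replication and mitosis mark cycling cells, and the DP is known as a tissue that divides little. Of 47 genes of this kind 14 fell, none rose and 33 were not called, with a median of -1.52. The falls were 12 of 24 mitosis genes and 2 of 23 replication genes. Cdk1, the mitotic kinase, had 24.1, 165 and 100.4 normalized reads at P20 and 4.20, 2.38 and 0 at P60 and fell by 4.85 ± 0.87 on the log2 scale. Ccnb1, its cyclin, had 10.7, 157 and 120.5 at P20 and 0, 7.15 and 2.31 at P60 and Top2a, the topoisomerase that untangles replicated chromosomes, had 72.3, 923 and 496 normalized reads at P20 and 31.5, 28.6 and 25.4 at P60. P20 control 1 was the lowest P20 library for all 3 genes, and the P60 libraries held a few reads of Cdk1 and Ccnb1 or none. The summed level of the list was 4754, 14209 and 10474 normalized reads in P20 controls 1, 2 and 3, and 4523 to 5213 in the P60 controls. The exact permutation test of these sums gave p = 0.2. In P20 controls 1, 2 and 3 the markers of other dermal fibroblasts summed to 81079, 137584 and 106769 normalized reads. Adipocyte markers summed to 3846, 11014 and 6273, keratinocyte markers to 2710, 2029 and 2461 and DP markers to 49903, 42347 and 47677. The part of other cells in the level of the cycle genes was not tested. The number of falls rested on the libraries left in: it was 40 without P20 control 1, 4 without P20 control 2 and 1 without P20 control 3, and 7, 5 and 3 without P60 control 1, 2 and 3.

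Of 14 cyclins and CDK inhibitors tested 2 fell, against 6.45% of all genes. Ccnd2, a D-type cyclin of the G1 phase, had 4802, 5633 and 4816 normalized reads at P20 and 2468, 2581 and 1685 at P60 and fell by 1.20 ± 0.17 on the log2 scale, and Ccnd1 had 892, 1209 and 1073 normalized reads at P20 and 594, 734 and 355 at P60 and fell by 0.97. For both genes the 3 P20 libraries, P20 control 1 included, lay above the 3 P60 libraries. The CDK inhibitors of the list were not called. Without P20 control 1 the falls numbered 6, and without P20 control 2 or 3 or P60 control 1 or 3 a single gene fell.

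Imprinted genes are expressed from only the maternal or the paternal copy, and a network of them is known to be high in growing tissues of young mice and to decline with age. Of 26 tested, 7 fell, none rose and 19 were not called, with a median of -0.62. Besides H19, the noncoding RNA Mirg of the Dlk1-Meg3 region had 589, 322 and 473 normalized reads at P20 and 88.2, 133 and 32.3 at P60 and fell by 2.61 ± 0.45 on the log2 scale. The zinc finger gene Zim1 had 552, 795 and 533 normalized reads at P20 and 162, 136 and 50.7 at P60 and fell by 2.56. Its neighbour Peg3 and the genes Dlk1, Mest and Plagl1 were the other falls, between 0.87 and 1.73. Without P20 control 1, the lowest P20 library for H19, 12 genes of the list fell, and without any other library 5 to 8.

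Interferons are cytokines of antiviral defence, and their target genes include sensors, guanosine triphosphatases and the machinery that loads peptides on class I molecules. Many of these targets are switched on through an interferon-stimulated response element near the start of the gene. The letters GAAANNGAAA, or TTTCNNTTTC on the other strand, were searched in the 250 bases before the start site in RefSeq's promoter table (GRCm38.p6). They occurred in 14 of 33 matched genes of the interferon and antigen presentation list (42.4%), and in 3.46% of all 27025 genes of the table. The share was 8 of 18 among matched genes called higher and 6 of 15 among those not called. The 160 bases before the start of 4 called genes that hold the motif, 1 of antigen presentation, 1 interferon-induced gene and 2 guanosine triphosphatases, are printed 5′ to 3′ on the strand of the gene with the matches in capitals, to show where the motif lies. These 4 were picked after their values had been seen, and a match is not evidence of binding.
B2m, chr2:122147527-122147686, plus strand: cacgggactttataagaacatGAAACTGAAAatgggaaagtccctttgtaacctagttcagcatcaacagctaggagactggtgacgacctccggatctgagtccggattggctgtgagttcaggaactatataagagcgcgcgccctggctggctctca
Ifit1, chr19:34640729-34640888, plus strand: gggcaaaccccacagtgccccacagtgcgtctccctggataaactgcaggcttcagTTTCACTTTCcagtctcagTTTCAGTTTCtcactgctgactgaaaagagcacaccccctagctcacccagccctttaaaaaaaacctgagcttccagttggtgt
Gbp2, chr3:142620503-142620662, plus strand: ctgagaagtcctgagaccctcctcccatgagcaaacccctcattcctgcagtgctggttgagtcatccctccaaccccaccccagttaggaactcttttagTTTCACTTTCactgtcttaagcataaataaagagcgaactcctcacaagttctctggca
Irgm1, chr11:48871421-48871580, minus strand: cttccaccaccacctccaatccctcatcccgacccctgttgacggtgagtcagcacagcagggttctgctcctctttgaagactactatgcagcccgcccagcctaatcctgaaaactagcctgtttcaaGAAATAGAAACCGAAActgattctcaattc
The motif starts 139 bases before the start site in B2m and 59 in Gbp2. Ifit1 holds 2 matches, at 104 and 85 bases, and Irgm1 holds 2 that overlap, at 30 and 24 bases.

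Of 42 genes of this list 24 rose, none fell and 18 were not called, against 6.12% of all genes called higher, and the median was 0.92. Antigen presentation gave 11 rises among 14 genes and the interferon-stimulated group 13 among 28. Iigp1, an interferon-inducible guanosine triphosphatase, had 241, 452 and 258 normalized reads at P20 and 1110.4, 1759 and 975 at P60 and rose by 2.02 ± 0.28 on the log2 scale (adjusted p = 0.00222). Irf7, the transcription factor that amplifies the interferon response, had 187, 211 and 189 normalized reads at P20 and 791, 789 and 523 at P60 and rose by 1.81 ± 0.19 on the log2 scale. Psmb9, a subunit of the immunoproteasome, had 145, 138 and 118 normalized reads at P20 and 403, 479 and 325 at P60 and rose by 1.57. The ages did not overlap for these 3 genes, and P60 control 3 was the lowest P60 library for each. Of the genes whose promoters are printed above, B2m, the light chain of class I molecules, had 6077, 6241 and 6599.6 normalized reads at P20 and 12399, 14676 and 12436 at P60, Ifit1 had 109.8, 241 and 106 normalized reads at P20 and 453, 593 and 254 at P60, Gbp2 had 1165, 1915 and 1612 normalized reads at P20 and 2767, 6101 and 4341 at P60 and Irgm1 had 378, 452 and 470.4 normalized reads at P20 and 802, 1199 and 862 at P60. Their rises were 1.06 ± 0.14, 1.53 ± 0.37, 1.45 ± 0.27 and 1.12 ± 0.18. The count of rises was 11 without P20 control 3 and 12 without P60 control 2. Class I heavy chain genes are near-identical to each other, so the split of reads among H2-K1, H2-D1, H2-Q4 and H2-Q7 is uncertain.

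**Figure D4:**
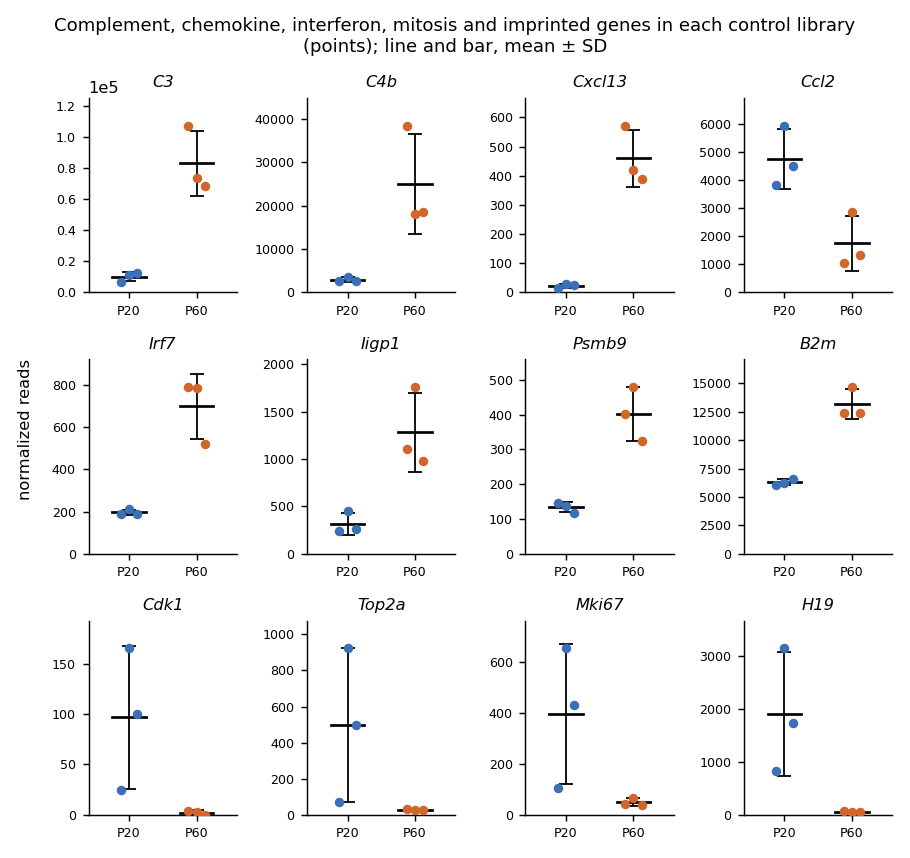
Normalized reads (vertical axes from 0, 1 scale per gene) of 12 genes in the 3 P20 (blue) and 3 P60 (orange) control libraries, with lines and bars for mean ± SD. C3, C4b, Cxcl13, Irf7, Iigp1, Psmb9 and B2m lie higher at P60, and Ccl2, Cdk1, Top2a, Mki67 and H19 lie higher at P20, with the 3 mitosis genes lowest in P20 control 1.

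Complement genes encode a cascade of plasma proteins that fibroblasts also make. Of 31 complement and chemokine genes tested 12 rose and 2 fell, and 8 of the 14 complement genes were among the rises. C3 (chr17:57203970-57228136), the central component, had 6792, 11243 and 12261 normalized reads at P20 and 106933, 73439 and 68272 at P60 and rose by 3.05 ± 0.26 on the log2 scale (adjusted p = 0.000249), with a 8.21-fold higher mean. C4b had 2536, 3619.8 and 2630.1 normalized reads at P20 and 38353, 18106 and 18619.7 at P60 and rose by 3.02 ± 0.28 on the log2 scale. The lowest P60 library held at least 5 times the reads of the highest P20 library for both genes. C4b has a near-identical neighbour, C4a, so that its reads may be split. Cxcl13, a chemokine that attracts B cells, had 13.4, 27.1 and 25.8 normalized reads at P20 and 571, 419 and 387 at P60 and rose by 4.36 ± 0.31 on the log2 scale (adjusted p = 0.000109), with a 20.8-fold higher mean. P60 control 1 was the highest library for C3, C4b and Cxcl13. In P60 controls 1 to 3 the DP markers summed to 31924, 35669 and 48864 normalized reads. The markers of other dermal fibroblasts summed to 143357, 115254 and 112401 there. Whether these levels are related was not tested. Of the other called complement genes, C1ra, C1s1, C2, Cfb and Serping1 rose by between 0.82 and 2.27, and the chemokine genes Ccl8, Ccl11 and Cxcl12 by between 0.82 and 2.01. In the opposite direction, Ccl2, which attracts monocytes, had 3838, 5936 and 4512 normalized reads at P20 and 1056, 2874 and 1316 at P60 and fell by 1.56 ± 0.32 on the log2 scale, and Masp1, a protease of the lectin pathway, had 2274, 1409 and 1899 normalized reads at P20 and 850.1, 1099 and 770.1 at P60 and fell by 1.03. The count of rises was 8 without P20 control 3 and 11 or 12 without any other library, and the falls numbered 0 without P20 control 3, 1 without P60 control 3, 2 without P20 control 2 or P60 control 1, and 4 without P20 control 1 or P60 control 2.

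Immune cells are rich in antigen presentation and complement receptor genes, and their markers were read beside these rises. The 14 markers summed to 913 to 1088 normalized reads at P20 and 611 to 679 at P60. The leukocyte gene Ptprc was at 5.36, 8.12 and 5.74 at P20 and 0, 2.38 and 4.61 at P60, Tyrobp at 8.04, 0 and 2.87 at P20 and 6.30, 9.53 and 6.92 at P60, Cd3g was at 0 in the 6 libraries and 7 of the 14 had a mean under 10. Csf1r, the receptor of macrophage colony-stimulating factor, made up most of the sum at P20 and fell by 1.67, with 720.5, 790.0 and 706 at P20 and 248, 257 and 194 at P60. The class II genes Cd74 (37.5, 78.5 and 57.4 at P20 and 115, 150.1 and 164 at P60) and H2-Aa (42.9, 18.9 and 28.7 at P20 and 65.1, 88.2 and 119.9 at P60) rose and were the 2 rises of the list, which were both lost without P20 control 3, P60 control 2 or P60 control 3. Without Csf1r the other 13 markers summed to 193 to 298 normalized reads at P20 and 363 to 475 at P60, so that the ages did not overlap and P60 was the higher. Of the 7 markers tested, Csf1r included, 4 had a positive log2 change and the median was 1.14. The part of immune cells in the rises was not tested.

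The DP signature changed in both directions. Of 37 genes 6 rose and 7 fell, against 6.12% and 6.45% of all genes, with a median of -0.20. Crabp1 (chr9:54764748-54773110), which binds retinoic acid inside the cell, had 2472, 2148 and 2959.9 normalized reads at P20 and 8262, 8837 and 8839.5 at P60 and rose by 1.79 ± 0.14 on the log2 scale (adjusted p = 0.000211). Notum, a secreted enzyme that inactivates Wnt proteins, had 4583, 2116 and 3659.7 normalized reads at P20 and 6708, 7998 and 8674 at P60 and rose by 1.24 ± 0.25 on the log2 scale, and the homeobox gene Msx1 had 48.2, 75.8 and 40.2 normalized reads at P20 and 164, 102 and 106 at P60 and rose by 1.18. Sostdc1, a secreted antagonist of BMP and Wnt ligands, had 1741, 760.2 and 1382 normalized reads at P20 and 592, 284 and 203 at P60 and fell by 1.91 ± 0.39 on the log2 scale. Sox18, a transcription factor of the DP, had 273, 214 and 324 normalized reads at P20 and 145, 61.97 and 101 at P60 and fell by 1.45. Vcan fell, as described above. For each of these 6 genes the ages did not overlap. With P20 controls 1 to 3 and then P60 controls 1 to 3 left out, the fits gave 4, 3, 2, 4, 1 and 2 rises and 7, 5, 1, 3, 3 and 7 falls.

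Of the 15 markers in the DP marker list 3 rose, 4 fell and 8 were not called, against 6.12% and 6.45% of all genes. The other 2 rises were those of the T-box gene Tbx18 (348, 254 and 396 normalized reads at P20 and 508, 539 and 546 at P60, log2 change 0.70 ± 0.18) and of Fgf7, a growth factor for keratinocytes (975, 1169 and 1098 normalized reads at P20 and 1381, 1451 and 1669 at P60, 0.47 ± 0.13). The other 2 falls were those of the Wnt inhibitor Wif1 (5841, 3517 and 5099.5 normalized reads at P20 and 1324, 1954 and 3408 at P60, -1.19 ± 0.31) and of alkaline phosphatase, Alpl (429, 484 and 456 normalized reads at P20 and 222, 312 and 299.7 at P60, -0.73 ± 0.17). Alpl and Wif1 were far higher in anagen, at 1978 to 18252 and 31546 to 109697. Leaving out the libraries in the same order gave 2, 1, 1, 1, 1 and 1 marker rises and 3, 3, 1, 2, 3 and 6 falls.

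Among the markers not called, Rspo3, a Wnt agonist, had 742, 598 and 906 normalized reads at P20 and 369, 369 and 623 at P60 and a log2 change of -0.75 ± 0.23. Hhip, a Hedgehog decoy receptor, had 1328, 966 and 1351 at P20 and 846, 999 and 915 at P60. Enpp2, which makes lysophosphatidic acid, had 18055, 12577 and 14097 at P20 and 7531, 7488 and 15205 at P60. Fgf10 had 1915, 1637 and 2529.7 at P20 and 2044, 1583 and 2197 at P60, with a log2 change of -0.05. The transcription factors Lef1 (2121, 1577 and 2036 at P20 and 1309.8, 2021 and 3013 at P60), Prdm1 (2968, 2308 and 3338 at P20 and 2019, 3849 and 6101 at P60) and Sox2 (102, 51.4 and 68.8 at P20 and 52.5, 61.97 and 115 at P60) overlapped between the ages, with log2 changes of 0.08, 0.35 and 0.02, and so did Corin, at -0.31. P60 control 1 was the lowest P60 library for Corin, Lef1, Prdm1, Sox2 and Wif1, and P60 control 3 was the highest for these 5.

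**Figure D5:**
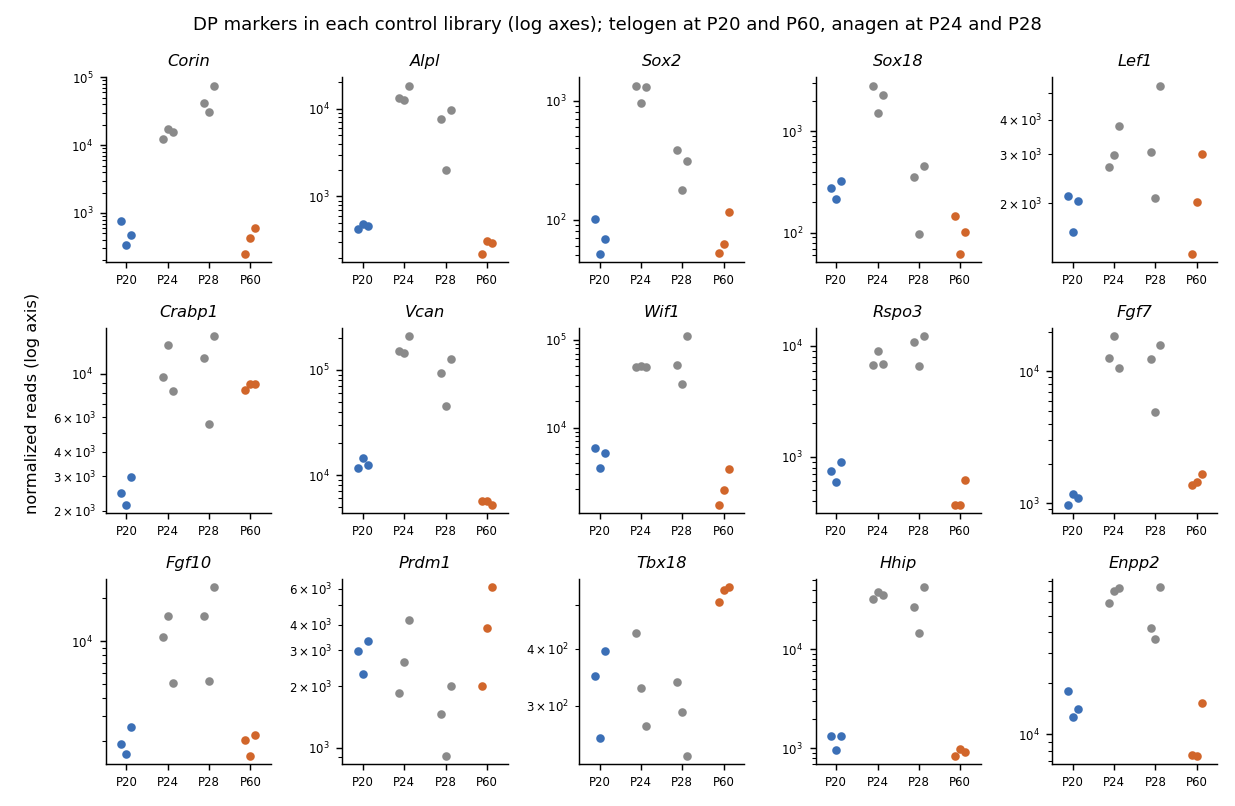
Normalized reads (log axes) of the 15 DP markers in each control library at P20 (blue), P24 and P28 (grey, anagen) and P60 (orange). Corin, Alpl, Sox2, Vcan, Wif1, Rspo3, Fgf7, Fgf10, Hhip and Enpp2 are higher in each anagen library than in any telogen library, whereas Crabp1 at P60 lies within the anagen range and Tbx18 at P60 above it.

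BMPs hold the stem cells of the follicle at rest, and their antagonists release them. Of 42 tested genes of the pathway 4 rose and 7 fell, against 6.12% and 6.45% of all genes. The ligand Gdf10 had 1291, 1125 and 967 normalized reads at P20 and 3392, 4171 and 3952 at P60 and rose by 1.77 ± 0.15 on the log2 scale (adjusted p = 0.000231). The antagonist Grem1, gremlin, had 956, 733 and 886 normalized reads at P20 and 1952, 2479 and 2043 at P60 and rose by 1.33 ± 0.15 on the log2 scale, and the antagonists Sostdc1, Fstl1 and Fstl3 fell. Fstl1 had 44752, 82045 and 57101 normalized reads at P20 and 32058, 30999.7 and 22795 at P60 and Fstl3 had 538, 384 and 419 normalized reads at P20 and 267, 307 and 224 at P60, with log2 changes of -1.07 ± 0.25 and -0.74 ± 0.19. Smad9, a signal transducer that BMP signalling also induces, rose by 1.38, with 42.9, 27.1 and 28.7 at P20 and 81.9, 78.6 and 96.8 at P60. None of 7 receptors tested was called. The fits without P20 controls 1 to 3 and P60 controls 1 to 3, in that order, gave 3, 3, 2, 2, 2 and 3 rises and 5, 4, 0, 3, 0 and 3 falls.

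Wnt signals start anagen, and of 41 tested genes 4 rose and 6 fell, against 6.12% and 6.45% of all genes. The secreted inhibitors moved both ways, 3 up and 3 down. Notum rose, Dkk2 had 7400.3, 3977 and 6232 normalized reads at P20 and 8637, 11376 and 12738 at P60 and rose by 0.92, and Frzb had 196, 135 and 178 normalized reads at P20 and 235, 284 and 413 at P60 and rose by 0.85, while Sostdc1, Wif1 and Dkk3 fell. The targets did too, Axin2 rising and Ccnd1 and Lgr5 falling. Lgr5, a receptor of the R-spondins, had 466, 914 and 723 normalized reads at P20 and 338, 309.8 and 311 at P60 and fell by 1.08. Of 11 ligands Wnt10a fell and none of the 5 agonists was called. Leaving out the libraries in the same order gave 5, 1, 1, 3, 0 and 1 rises and 6, 6, 0, 5, 3 and 4 falls.

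FGF signals of the DP reach the secondary germ, and 4 of 27 tested genes of the pathway rose while none fell, against 6.12% and 6.45% of all genes. Of these 3 were Ets transcription factors that FGF signalling induces. Etv1 had 474, 300.3 and 516 normalized reads at P20 and 1079, 1099 and 1517 at P60 and rose by 1.54 ± 0.22 on the log2 scale (adjusted p = 0.00296), Etv5 had 466, 457 and 574 normalized reads at P20 and 739, 767 and 1399 at P60 and rose by 0.90, and Etv4 had 53.6, 37.9 and 48.8 normalized reads at P20 and 103, 73.9 and 106 at P60 and rose by 0.99. The fourth was Fgf7, whose adjusted p was 0.0475 and which was not called in any fit that left out a library. The Sprouty and Spred inhibitors of the list were not called, nor were the 6 receptors. Leaving out P20 controls 1 to 3 and then P60 controls 1 to 3 gave 4, 1, 1, 2, 1 and 1 rises.

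The smaller pathways rested on few calls, to be read beside the 6.12% of all genes called higher and 6.45% lower. Of 25 genes of the TGF-beta and activin group 2 rose and 3 fell. Inhbb, the activin B subunit, had 603, 389.6 and 436 normalized reads at P20 and 667, 1075 and 1914 at P60 and rose by 1.25. The latent TGF-beta binding proteins went opposite ways, Ltbp4 with 5493, 4780.4 and 5751 normalized reads at P20 and 9771, 9562 and 10548 at P60 and a log2 change of 0.90 ± 0.13, and Ltbp2 with 8814, 6512 and 6872 normalized reads at P20 and 2945, 5410.1 and 4122 at P60 and a log2 change of -0.86 ± 0.22. Tgfb2, a ligand, fell by 0.67 ± 0.15 on the log2 scale, with 3723, 3828 and 3447 at P20 and 1864, 2624 and 2481 at P60. In the Hedgehog pathway, the receptor and target Ptch1 had 3677, 4991 and 6287 normalized reads at P20 and 2689, 2791 and 3281 at P60 and fell by 0.74, and the transcription factor Gli3 had 2239, 1569 and 1684 normalized reads at P20 and 2638, 3732 and 2843 at P60 and rose by 0.75, which made 1 fall and 1 rise among 11 genes. Of 15 Notch genes 2 rose, the receptor Notch3 (2405, 1469 and 1970.4 normalized reads at P20 and 3516, 2924 and 2947 at P60, log2 change 0.71 ± 0.18) and the ligand Jag1 (2411, 2584 and 2630.1 normalized reads at P20 and 3812, 3529.7 and 3491 at P60, 0.51 ± 0.12). Notch3 is also on the pericyte list, of whose 6 markers it alone was called, and their sum was 10367 to 12336 at P20 and 13056 to 13372 at P60. With P20 controls 1 to 3 and then P60 controls 1 to 3 left out, the fits gave 3, 2, 1, 2, 1 and 1 rises and 1, 2, 0, 0, 3 and 1 falls in the TGF-beta group, 1, 0, 0, 1, 0 and 0 rises and 3, 0, 0, 0, 0 and 0 falls in the Hedgehog pathway and 2, 0, 0, 0, 0 and 1 rises in the Notch pathway.

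Among 17 growth factors and receptors of the PDGF, HGF, VEGF and EGF families 2 rose and 2 fell, against 6.12% and 6.45% of all genes. Hgf, which acts on keratinocytes and melanocytes, had 93.7, 122 and 138 normalized reads at P20 and 271, 300.3 and 198 at P60 and rose by 1.11 ± 0.23 on the log2 scale, and it was the 1 called gene of 6 tested signals to melanocytes. Egfr had 2512, 3690.1 and 2589.9 normalized reads at P20 and 7834, 5231 and 4473 at P60 and rose by 0.98. Pdgfc had 1259, 1345 and 2019 normalized reads at P20 and 693, 505 and 957 at P60 and fell by 1.12, and Ereg, an EGFR ligand, fell by 2.32 from a low level, with 45.5, 37.9 and 31.5 at P20 and 6.30, 7.15 and 6.92 at P60, at 3 reads per library in the P60 controls. Neither rise was called without P60 control 2, and neither fall without P20 control 3.

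Growth hormone acts in part through Igf1. Ghr, the growth hormone receptor, had 1529, 1945 and 1890.1 normalized reads at P20 and 3176, 3329 and 3619.7 at P60 and rose by 0.92 ± 0.14 on the log2 scale (adjusted p = 0.00317), whereas Igf1 had 6701, 13724 and 9772 normalized reads at P20 and 4805, 4824 and 4464 at P60 and fell by 1.04 ± 0.23 on the log2 scale (adjusted p = 0.0186). The 3 P60 libraries lay within 3176 to 3620 for Ghr and within 4464 to 4824 for Igf1, and neither gene overlapped between the ages. These were the only called genes of 14 in the axis, and none of the 7 IGF binding proteins was called. The call of Igf1 was lost without P20 control 3, P60 control 2 or P60 control 3. Of 17 hormone and vitamin receptors 3 rose, Ghr among them, and 2 fell, against 6.12% and 6.45% of all genes. Nr3c2, the mineralocorticoid receptor, had 380.3, 157 and 327 normalized reads at P20 and 542, 579 and 604 at P60 and rose by 1.09. Prlr, the prolactin receptor, had 23816, 10581 and 16655 normalized reads at P20 and 7470.4, 9099 and 8321 at P60 and fell by 0.96, and Rarb, a retinoic acid receptor, fell by 0.84, with 190.2, 165 and 169 at P20 and 107, 95.3 and 89.9 at P60. Of 12 retinoid handling genes Crabp1 and Aldh1a3, an enzyme that makes retinoic acid, rose. Aldh1a3 had 201, 292 and 249.5 normalized reads at P20 and 1299, 460.0 and 639 at P60 and rose by 1.56 ± 0.33 on the log2 scale, and P60 control 1 was the highest of the P60 libraries by far. No receptor fell without P20 control 3, P60 control 2 or P60 control 3.

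Of 22 clock genes 3 rose, namely Per3 (1074, 1169 and 1279 normalized reads at P20 and 2429, 1730.3 and 1916 at P60, log2 change 0.77 ± 0.15), Hlf (734, 771 and 1024 normalized reads at P20 and 1439.9, 1706 and 1125 at P60, 0.75 ± 0.19) and the kinase gene Csnk1e (983, 782 and 935 at P20 and 1241, 1232 and 1247 at P60, 0.47 ± 0.13). Immediate early genes answer to growth factors and to cell isolation, and 4 of 27 rose while 1 fell. Beside the clock and immediate early counts stand 6.12% of all genes called higher and 6.45% lower. Egr1 had 39299, 25444 and 28661 normalized reads at P20 and 61094, 66053 and 62444 at P60, Socs3 had 22088, 17187 and 20716 normalized reads at P20 and 34069, 50438 and 41048 at P60 and Zfp36 had 23090.0, 20436 and 22277 normalized reads at P20 and 32659, 49427 and 40239 at P60, with rises of 1.05 ± 0.21, 1.05 ± 0.20 and 0.88 ± 0.19. The fourth rise was that of Fos. Egr4 fell by 2.04, with 42.9, 43.3 and 43.02 at P20 and 8.40, 11.9 and 9.22 at P60. The fits without P20 controls 1 to 3 and P60 controls 1 to 3, in that order, gave 4, 1, 0, 3, 1 and 2 immediate early rises and 3, 1, 2, 1, 1 and 4 clock rises. None of 15 heat shock genes was called, and the most abundant, Hspa8 (27464, 24941 and 27709 normalized reads at P20 and 14718, 18039 and 28488 at P60) and Hsp90ab1 (24801, 25888 and 28856 normalized reads at P20 and 16807, 19357 and 31203 at P60), were highest in P60 control 3, without which 5 heat shock genes were called lower. Of 13 mitochondrially encoded genes mt-Nd3 fell, with a log2 change of -0.57 ± 0.16, against 6.45% of all genes, and this call was kept in 1 of the 6 fits without a library. Mitochondrial RNA took 0.358% to 0.458% of reads at P20 and 0.506% to 0.610% at P60. These are shares of all reads, of which the type I and III collagen chains took far less at P60. In normalized reads the 13 genes summed to 119700 to 155028 at P20 and 100938 to 132262 at P60, and the ages overlapped. The genes Gm26917 and Gm42418, which overlap ribosomal RNA, took 6.83% to 8.23% of reads at P20 and 6.86% to 7.32% at P60.

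Hdac1 had 375, 511 and 505 normalized reads at P20 and 506, 359.9 and 376 at P60, Hdac2 had 828, 952 and 852 normalized reads at P20 and 775, 727 and 609 at P60 and Hdac3 had 828, 887 and 906 normalized reads at P20 and 695, 665 and 712 at P60. Their log2 changes, -0.17 ± 0.19, -0.32 ± 0.14 and -0.34 ± 0.12, were not called, and the libraries of the ages overlapped for Hdac1 only. The floxed Hdac1 and Hdac2 alleles of each control library are not known. For Hdac1 and Hdac2, allele number and age therefore cannot be told apart. Of 11 deacetylase genes Hdac10 (179, 165 and 166 normalized reads at P20 and 411, 243 and 256 at P60, 0.79 ± 0.22) and Hdac7 (1768, 1956 and 1523 normalized reads at P20 and 3094, 2195 and 2679 at P60, 0.60 ± 0.16) rose. These rises stand beside 6.12% of all genes called higher. Neither rise was called without P20 control 3, P60 control 1 or P60 control 3. Xist had 14538, 8113 and 12293 normalized reads at P20 and 20743, 21199.5 and 16893 at P60 and rose by 0.79 (adjusted p = 0.0443), a call that 1 of the 6 fits without a library kept.

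Markers of other cells were called in both directions, and their counts stand beside 6.12% of all genes called higher and 6.45% lower. Of 14 keratinocyte markers tested 2 rose and 1 fell, and the list summed to 2029 to 2710 at P20 and 1845 to 1994 at P60. The basal keratins Krt5 (48.2, 70.3 and 17.2 at P20 and 166, 35.7 and 29.97 at P60) and Krt14 (13.4, 21.6 and 17.2 at P20 and 118, 33.4 and 18.4 at P60) were highest in P60 control 1. Of 10 endothelial markers Tek rose (284, 528 and 338 at P20 and 1713, 689 and 692 at P60), with sums of 1063 to 1639 and 1580 to 3314. Of 9 adipocyte markers tested none was called, and their sums were 3846 to 11014 and 2624 to 5197. Of 7 Schwann cell markers tested Mbp rose and 2 fell, Gfra3 among them, with sums of 8343 to 10443 and 7246 to 9223, and Pmp22, which fibroblasts also express, made up most of these. Of 10 dermal sheath and smooth muscle markers 1 fell, of 5 melanocyte markers tested Mitf rose, with sums of 817 to 999 and 1167 to 1461, and of the 4 tested muscle and 2 tested hair shaft markers none was called. The summed erythrocyte markers did not exceed 34.6 normalized reads in any of the 6 libraries. Apart from the Schwann cell rise, each of these calls was lost in at least 1 fit without a library. Without P20 controls 1 to 3 and then P60 controls 1 to 3, keratinocyte markers gave 3, 1, 0, 1, 1 and 0 rises and 0, 1, 0, 0, 0 and 1 falls, endothelial markers 1, 1, 0, 0, 0 and 1 rises, melanocyte markers 1, 0, 0, 0, 0 and 1 rises, Schwann cell markers 1 rise each time and 2, 0, 0, 1, 1 and 1 falls, and sheath and smooth muscle markers 0, 1, 0, 0, 0 and 1 falls. Pericyte markers gave 1 rise without P20 control 1 and none in the other 5 fits. The part of these cells in the changes was not tested.

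The same age contrast was read in the dM1/2 libraries, which share no sample with the controls. There 560 of 14124 genes (3.96%) were called higher and 332 (2.35%) lower. Of the 848 genes called higher in controls and tested in dM1/2, 782 (92.2%) were also positive there, and of the 894 called lower 806 (90.2%) were also negative, against 68.7% of all 13749 genes tested in both. Genes called higher in both genotypes numbered 300, which is 35.4% of the control list and 53.6% of the dM1/2 list. Genes called lower in both numbered 141, or 15.8% and 42.5%. Inmt changed by 7.17 in dM1/2, C3 by 3.15, C4b by 4.03, H19 by -3.38, Fbn2 by -1.89 and Eln by -1.62, and all of these were called there. Col1a1 changed by -1.52 (adjusted p = 0.451), Lox by -0.63 (0.389), Mirg by 0.02 (0.981), Gdf10 by 0.05 (0.954), Lrrtm1 by -0.39 (0.825) and Crabp1 by -0.58 (0.631), and none of these 6 was called. For Col1a1, which limma with a trend did not call in controls either, this does not mean no change. It took 13.1% to 15.9% of reads in the P20 dM1/2 libraries and 4.39% to 6.94% in the P60 dM1/2 libraries, without overlap.

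By list, the median change in dM1/2 was -0.34 for fibrillar collagens and their processing, -0.78 for DNA replication and mitosis, 1.66 for interferon and antigen presentation and -1.39 for the DP signature, beside -1.13, -1.52, 0.92 and -0.20 in controls. The difference of the age change between the genotypes was tested gene by gene over the 12 telogen libraries. Limma called none of 14037 genes, with 1756 at an unadjusted p under 0.05, while edgeR called 1 and DESeq2 169. For Sox18, which changed by -1.45 in controls and -3.64 in dM1/2, the adjusted p of the difference was 0.205, and for Fbn2, Notum and Corin it was 0.215, 0.215 and 0.269. In dM1/2 Notum changed by -2.09 and Corin by -2.17.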

How the data were processed

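YFP+ DP cells were isolated from skin by 2 rounds of sorting, and ribosomal RNA was depleted before sequencing. Per the labels and the study's methods, the authors trimmed reads with Trimmomatic, aligned them with TopHat2 to mm10, counted them per Ensembl gene (GRCm38.p4) with HTSeq and normalized them with DESeq2. The deposited values are this normalized signal, that is, counts divided by a size factor, and 100% of values gave whole reads (relative tolerance 1e-06). The strand setting of the counting and the treatment of reads that match several genes are not given in the sources used here.

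Libraries were grouped by the labels, 3 per group. Genes whose 6 libraries averaged 10 normalized reads or more were tested on log2(normalized reads + 1) with limma (3.58.1, R 4.3.3) with a mean-variance trend, two-sided, with Benjamini-Hochberg adjustment over all genes tested and a threshold of 0.05. The pseudocount understates changes of low genes. P20 and P60 dM1/2 libraries were fitted in the same way, and the difference between genotypes as an interaction over the 12 telogen libraries. Replicate libraries differed by more than sampling noise (chi-square per gene 10.4 to 29.3), so none was a repeat deposit. Alternatives were edgeR (4.0.16), DESeq2 (1.42.0), other scalings, pseudocounts and filters, thinning to the smallest library and leaving out each library. The limma step was tested on simulated data (12641 genes, 50 changed at each size). There it recovered 100% of the genes changed by -2 or 2 on the log2 scale, 68% at -1 and 56% at 1, with 7 false calls. These rates describe the simulated data only. The real libraries were unequal, with 527 to 2796 calls in controls when 1 library was left out. The rates of recovery and of false calls in this comparison are therefore not known.

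The comparison and the lists were chosen with earlier results of these data known, and the libraries of the comparison by their labels alone. Genes named were the 10 largest rises and falls among called genes whose ages did not overlap and whose mean reached 100 normalized reads in the higher age (without predicted genes, pseudogenes, ribosomal protein genes and markers of other cells), up to 3 rises and 3 falls of each list (the 2 most abundant where none was called), Hdac1, Hdac2, Hdac3, Xist and Ddx3y and the 15 DP markers. Col1a1, Col3a1, the genes with printed promoters, markers of other cells and list members named without their own values were added after their values had been seen. Of the list genes, Rian, Kcnq1ot1, Mx2, Vegfd, Asip and Krt85 were not analysed here, and a few members are not reported here by name. Promoter sequences and motif positions came from RefSeq (GRCm38.p6), matched by symbol.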

Additional observations from a re-analysis of the deposited data

How the results depend on the processing

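Against 1746 calls, controls gave 1629 to 2083 with the other pseudocount, the TMM scalings, edgeR, DESeq2, the other filters, 1 fit over 24 libraries and thinning. They gave 462 at an adjusted p under 0.01, 835 with an absolute log2 change of at least 1, 752 without a trend (chosen after seeing the data) and 527 to 2796 without 1 library. The dM1/2 contrast gave 892 calls, 1837 with DESeq2 and 100 to 1772 without 1 library. Against 0 interaction calls, log2(normalized reads + 10), log2-CPM with TMM and edgeR with either scaling gave 1 each, DESeq2 169 and the fits without 1 library 0 to 21. The cause was not tested.

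With the replicate number as a block there were 923 calls in controls (400 higher, 523 lower), 795 in dM1/2 and 0 interaction calls. Same-numbered libraries deviated with correlations of -0.18, -0.12 and 0.05, and libraries did not all correlate best with their own number. So few correlations cannot show whether same-numbered samples shared more than a number, and the labels do not say.

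Of the 101 named genes called, none changed direction in any alternative. The fits without 1 library each kept 43 to 92 of these calls, 39 were kept in all 6, and the block kept 71, the fit over 24 libraries 60, the fit without a trend 50 and edgeR with TMM 97. Genes not called whose direction turned when 1 library was left out were Corin (-0.60 to 0.039), Fgf10 (-0.19 to 0.12), Lef1 (-0.22 to 0.38), Prdm1 (-0.026 to 0.77) and Sox2 (-0.31 to 0.27), and thinning gave -0.16 for Sox2. Depth limits genes of few reads, since 3 reads, the limit that a count of 0 allows, are worth 6.30 to 8.60 normalized reads.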

Other observations

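Groups of metabolic and secretory genes that were put together after the values had been seen also moved, and are given as counts with no test. Genes that make serine, glycine, proline and one-carbon units, the building blocks of collagen among them, gave 9 falls and no rise among 17 tested, with a median of -0.63. Aldh1l2, a mitochondrial folate enzyme, had 3391, 4274 and 3462 normalized reads at P20 and 434, 493 and 293 at P60 and fell by 3.21 ± 0.20 on the log2 scale. Pycr1, which makes proline, had 1532, 2099 and 1652 normalized reads at P20 and 451, 534 and 272 at P60 and fell by 2.11. The P20 libraries lay above the P60 libraries for both genes. Genes of translocation into the endoplasmic reticulum and of export from it gave 22 falls and no rise among 31, with a median of -0.89. Kdelr3, a receptor that returns resident proteins, fell by 1.62 ± 0.19 on the log2 scale, and Creb3l1, a transcription factor of secretory cells, fell by 1.22. Of 19 genes of cholesterol synthesis and its control 9 fell, and of 20 cytosolic aminoacyl-tRNA synthetases 5 fell, with medians of -0.79 and -0.34. Of 78 cytosolic ribosomal protein genes 3 fell, with a median of -0.09, and of 24 Hox genes tested none was called.

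Genes of xenobiotic and steroid metabolism gave 11 rises and 1 fall among 23 tested, with a median of 0.70. Besides Inmt and Ces1d, Hsd11b1, which regenerates active glucocorticoid, had 206, 152 and 184 normalized reads at P20 and 1058, 698 and 901 at P60 and rose by 2.28 ± 0.19 on the log2 scale. Aox3, an aldehyde oxidase, had 74.99, 143 and 100.4 normalized reads at P20 and 629.7, 293 and 281 at P60 and rose by 1.85. Of 15 interferon-inducible guanosine triphosphatase genes 13 rose, with a median of 2.02, and they include near-identical copies whose reads may be split. Of 50 replication-dependent histone genes 16 fell, with a median of -1.57, and their summed level was 7052, 13481 and 11650.3 normalized reads in P20 controls 1, 2 and 3 against 5520.4 to 7426 at P60. Of all genes tested 6.12% rose and 6.45% fell. The choice of these groups followed the changes, so their counts are no independent evidence.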
